A study of Mus musculus with 15 samples.

Results

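The organic ion transporters of the proximal tubule were followed as 9 genes (Slc22a2, Slc22a6, Slc22a7, Slc22a8, Slc22a12, Slc22a19, Slco1a1, Slco4c1 and Slc47a1) of the 20659 gene symbols named on the array, 16055 of which were tested. They were picked by symbol and found through the RefSeq accession of their probe; each had 1 probe with 1 spot, which was well above background on 15 of 15 arrays. Kidney RNA came from male C57/BJ mice whose left kidney was removed (uninephrectomy, UNX) or only handled (sham) at 6 weeks of age, and which then ate a high-fat diet (HFD) or a low-fat chow diet (LFD) until 20 weeks after the operation. There was 1 array per mouse, with 4 low-fat sham mice (LFD-sham), 4 low-fat mice with 1 kidney (LFD-UNX), 3 high-fat sham mice (HFD-sham) and 4 high-fat mice with 1 kidney (HFD-UNX). The labels state groups of 6 mice, so not every mouse has an array here. No genotype or transgene was involved; the tissue was whole frozen kidney, and the RNA of a tubule gene therefore depends on the number of such tubule cells and on the RNA in each, which cannot be told apart.

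These carriers move drugs, toxins, hormone conjugates, urate and metabolic acids between blood and urine. On the blood side of the proximal tubule cell, organic anion transporters of the SLC22 family take up anions in exchange for dicarboxylates, and organic cation transporters take up cations along the membrane potential. Other carriers in the brush border release the substrates into urine or reclaim them. Several of the genes lie in clusters of related SLC22 genes, and hepatocyte nuclear factors are known to be needed for the transcription of many of them.

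The stretches upstream of 4 members are shown because those members gave the paired patterns described further on. Slc22a12 varied with Slc22a6, Slc22a19 varied with Slc22a7, and Slc22a8 varied against Slc22a7. Slc22a6 and Slc22a8 lie close together on chromosome 19 and are read from the same strand, but the relation of their levels did not pass the test. Each stretch is the 250 bases before the RefSeq start, written 5′ to 3′ on the gene's strand, from RefSeq on assembly GRCm38.p6. Capitals mark the letters GTTAAT on either strand, a half-site of the hepatocyte nuclear factor 1 motif. The stretches lie at chr19:8617746-8617995 (plus strand) for Slc22a6, at chr19:8592932-8593181 (plus strand) for Slc22a8, at chr19:6543071-6543320 (minus strand) for Slc22a12 and at chr19:7711311-7711560 (minus strand) for Slc22a19.
Slc22a6: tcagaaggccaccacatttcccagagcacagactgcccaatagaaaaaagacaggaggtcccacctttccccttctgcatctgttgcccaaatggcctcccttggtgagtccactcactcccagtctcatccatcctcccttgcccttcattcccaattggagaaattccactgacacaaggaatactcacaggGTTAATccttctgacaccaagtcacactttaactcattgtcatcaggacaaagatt
Slc22a8: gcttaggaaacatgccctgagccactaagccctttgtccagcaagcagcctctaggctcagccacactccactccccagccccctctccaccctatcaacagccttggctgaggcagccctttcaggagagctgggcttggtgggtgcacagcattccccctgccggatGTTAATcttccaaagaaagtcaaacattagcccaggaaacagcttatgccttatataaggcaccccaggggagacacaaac
Slc22a12: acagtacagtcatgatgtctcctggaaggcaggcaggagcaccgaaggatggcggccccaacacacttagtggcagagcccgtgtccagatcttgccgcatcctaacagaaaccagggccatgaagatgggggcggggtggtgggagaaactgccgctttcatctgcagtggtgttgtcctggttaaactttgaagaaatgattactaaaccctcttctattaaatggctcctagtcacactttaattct
Slc22a19: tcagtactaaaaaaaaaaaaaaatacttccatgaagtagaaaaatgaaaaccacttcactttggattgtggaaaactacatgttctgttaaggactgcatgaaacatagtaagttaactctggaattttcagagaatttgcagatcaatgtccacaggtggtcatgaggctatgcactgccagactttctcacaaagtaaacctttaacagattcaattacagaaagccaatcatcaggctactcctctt

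An upstream stretch was found for 7 of the 9 members, without Slc22a7 and Slc47a1. The letters GTTAAT occurred once upstream of Slc22a6, 56 bases before the start, and once upstream of Slc22a8, 81 bases before it, both on the gene's strand, and were in 6.43% of 32851 stretches of the same length. The nuclear receptor half-site AGGTCA (in 14.02% of all stretches) was upstream of Slco1a1, and the androgen receptor half-site AGAACA (16.1%) upstream of Slc22a19 and Slco4c1. The HNF4 motif CAAAGTCCA (0.384%) matched none of the 7. All motifs were read on both strands, and none of them contains another. A match describes letters in the window, and no match says only that these letters are not in it.

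Levels are log2 signals minus the 75th percentile of the same array, called normalised log2 levels here; they compare arrays for 1 gene and not genes with each other. The share of spots well above background was 60.5% to 73.4% per array (mean 70.0% with high-fat and 63.4% with low-fat RNA), no spot was saturated, and precision is limited by how many arrays there are. Per the file headers, slides 1 and 2 carried the high-fat RNA and were scanned on a different day from slide 3 (low-fat sham) and slide 4 (low-fat, 1 kidney). Scan day and diet cannot be told apart, nor can slide and surgery within the low-fat diet. The high-fat sham arrays lay on slide 1 (replicate 1) and slide 2 (replicates 2 and 3), and the high-fat 1-kidney arrays on slide 1 (replicates 1 and 2) and slide 2 (replicates 3 and 4). The tissue label was checked with proximal tubule markers: Lrp2 (megalin, an endocytic receptor) ran from 5.56 to 6.56 and Kap (an androgen-regulated tubule protein) from 7.59 to 8.96 over the 15 arrays.

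The members differed widely in how much they varied. Slc22a7, which encodes the organic anion transporter OAT2, had an SD of 1.29 over the 15 arrays, rank 182 of 16055 genes, and its highest and lowest arrays were 17.9-fold apart. Slco1a1, an anion transporting polypeptide of the brush border that is known to be higher in male than in female mouse kidney, followed with an SD of 0.98 and a 10.7-fold range. Slc22a19 (OAT5, a brush border anion exchanger) had an SD of 0.65 and Slc22a8 (OAT3) one of 0.50. In contrast, Slc22a6 (OAT1, the uptake carrier for para-aminohippurate) had an SD of 0.12 and a 1.33-fold range, and only 1.15% of tested genes varied less. Slc22a2 (OCT2, the uptake carrier for cations) had an SD of 0.16, against a median of 0.32 over all tested genes. The remaining members, Slc22a12 (URAT1, the urate exchanger), Slco4c1 (a carrier of cardiac glycosides and thyroid hormone) and Slc47a1 (MATE1, the proton-coupled exporter of cations into urine), had SDs of 0.43, 0.48 and 0.39.

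**Figure D1:**
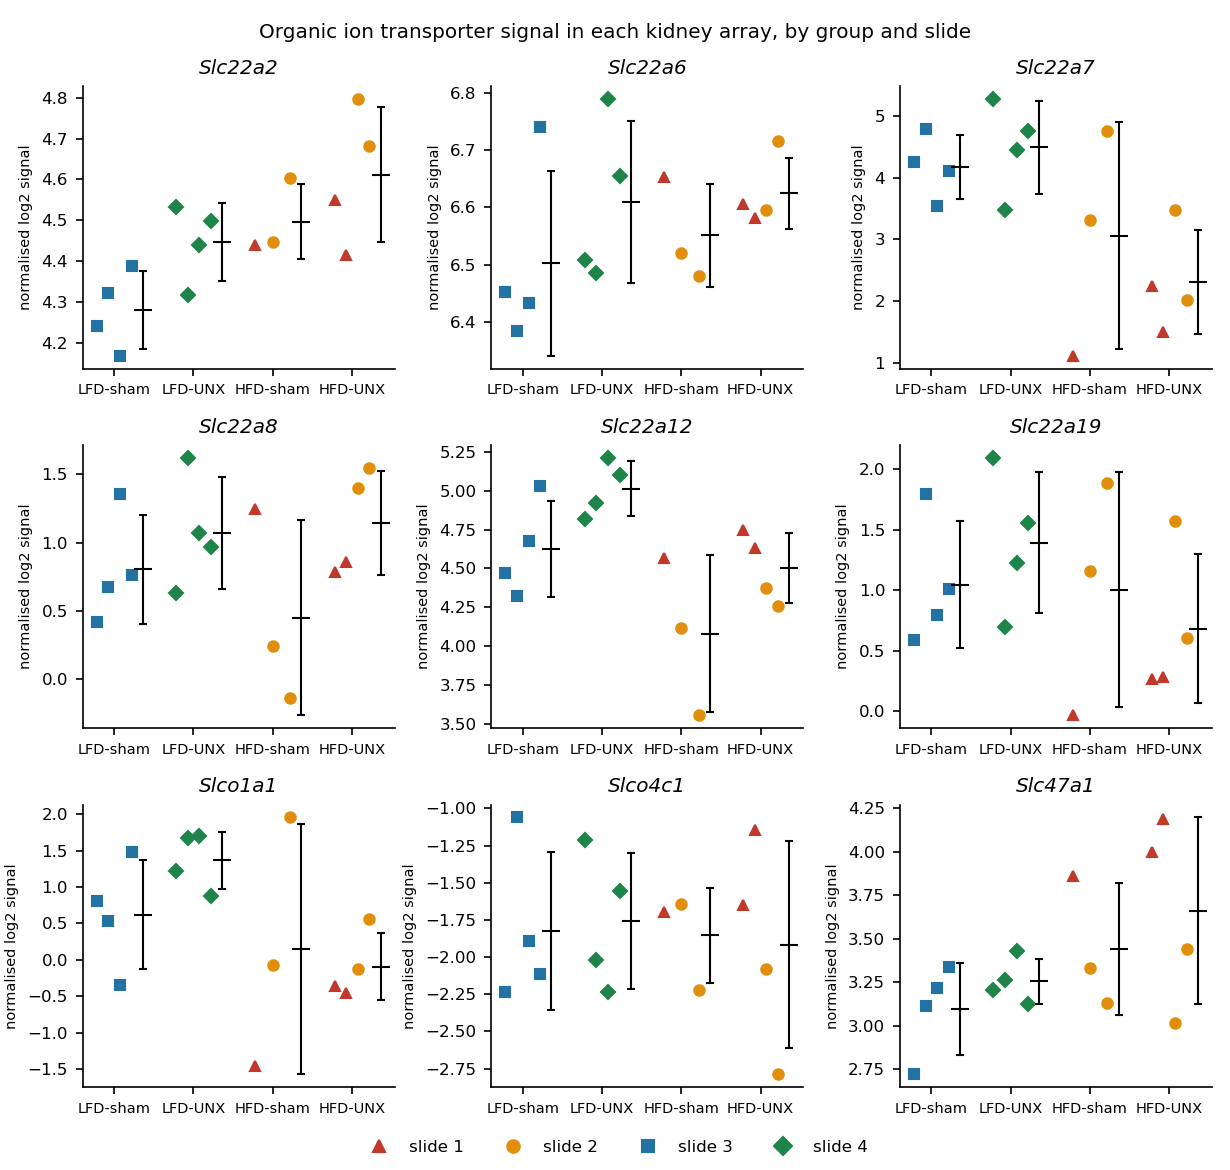
Normalised log2 level (vertical axis) of each transporter in the 15 arrays, by group; each point is 1 mouse, the marker shows its slide, and the bar beside the points is the mean with its SD. Slc22a7 runs from 1.11 to 5.27 and is at most 2.25 on the 3 arrays of slide 1, while Slc22a6 stays between 6.38 and 6.79.

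Diet was compared first, within each kind of operation. In mice with 1 kidney, Slc22a7 was lower on the high-fat diet and was the only one of the 9 members to pass. Its levels were 5.27, 3.48, 4.44 and 4.76 in the low-fat mice and 2.25, 1.50, 3.48 and 2.02 in the high-fat mice (replicates 1 to 4 in each). The lowest low-fat and the highest high-fat mouse both printed at 3.48, and by a margin beyond these decimals every high-fat array was lower, so the groups did not overlap. The means were 4.49 ± 0.76 (SD, n = 4) and 2.31 ± 0.84 (SD, n = 4). Slc22a7 thus fell by 2.18 on the log2 scale, or 4.52-fold (SE 0.64, 95% interval -3.55 to -0.81, limma adjusted p = 0.0367). In this comparison 14.2% of all tested genes passed and 6.52% passed as lower, so 1 of 9 members is near the background. With slides treated as a random block the call was lost (adjusted p = 0.354), and without any 1 of low-fat 1-kidney replicates 1, 3 or 4 or high-fat 1-kidney replicates 1, 2 or 4 (adjusted p from 0.0737 to 0.108).

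The other members did not pass between diets in mice with 1 kidney, though 2 more did not overlap, where 22.5% of genes with a value on every array did not. An unadjusted p under 0.05 was found for 3 of 9 members and 29.7% of genes. Slco1a1 was at 1.22, 1.67, 1.70 and 0.88 in low-fat mice and at -0.36, -0.46, -0.13 and 0.56 in high-fat mice with 1 kidney. Every low-fat array was thus above every high-fat array, with a log2 difference of -1.47 (SE 0.56, adjusted p = 0.0974). Slc22a12 was at 4.82, 4.92, 5.21 and 5.10 on the low-fat and at 4.75, 4.63, 4.37 and 4.26 on the high-fat diet. Its groups were separate as well, at a log2 difference of -0.51 (SE 0.21, adjusted p = 0.119). Left out singly, high-fat sham replicate 1 or 3, which are not part of this comparison but of the shared spread, brought Slco1a1 past the threshold (adjusted p = 0.0382 and 0.0218). For the 9 members the median log2 difference was -0.16, against -0.01 over all tested genes.

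In sham mice no member passed between diets, where 13.9% of genes passed; 1 member had an unadjusted p under 0.05 in limma, as did 30.2% of all genes. Slc22a7 was at 4.25, 4.79, 3.54 and 4.10 in low-fat sham mice and at 1.11, 3.31 and 4.75 in high-fat sham mice. The high-fat sham group thus held both the lowest array of all 15 and one close to the top of the low-fat groups. Its log2 difference was -1.11 (SE 0.69, 95% interval -2.59 to 0.37, adjusted p = 0.305). With the slide 1 array alone the difference from the low-fat sham mean was -3.06, and with the 2 slide 2 arrays it was -0.14, both without a test. Slc22a12, the member with the unadjusted p under 0.05, was at 4.47, 4.32, 4.67 and 5.03 in low-fat sham and at 4.57, 4.12 and 3.55 in high-fat sham mice. These groups overlapped, with a log2 difference of -0.55 (SE 0.23, adjusted p = 0.121). Without high-fat sham replicate 1 it was -0.79 (adjusted p = 0.0350), without high-fat sham replicate 3 it was -0.28 (adjusted p = 0.385), and with the slide 1 array alone -0.06.

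Slc22a2 was the only member whose groups did not overlap between diets in sham mice, where 26.2% of genes did not. Its levels were 4.24, 4.32, 4.17 and 4.39 on the low-fat diet and 4.44, 4.45 and 4.60 on the high-fat diet. All 3 high-fat arrays were above all 4 low-fat arrays, by 0.22 on the log2 scale (SE 0.12, adjusted p = 0.241). In mice with 1 kidney it was at 4.53, 4.32, 4.44 and 4.50 on the low-fat and at 4.55, 4.42, 4.80 and 4.68 on the high-fat diet. There the groups overlapped, and the difference was 0.16 (SE 0.11, adjusted p = 0.341).

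**Figure D2:**
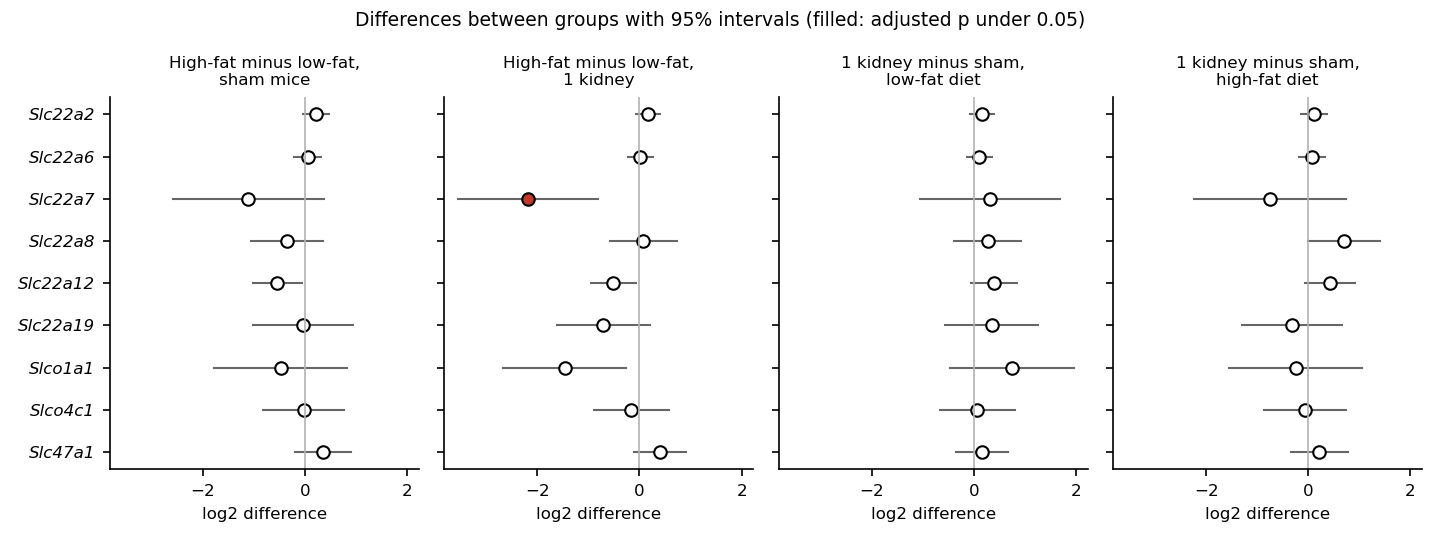
Log2 difference (horizontal axis) of each transporter in the 4 comparisons of diet and of surgery, with limma's 95% interval as the line; a filled point has an adjusted p under 0.05. Only Slc22a7 between diets in mice with 1 kidney (-2.18) is filled, and the intervals of Slc22a6 and Slc22a2 are the narrowest.

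The comparison of both treatments with neither sets high-fat mice with 1 kidney against low-fat sham mice, groups that also enter the comparisons above. Slc22a2 was higher with both treatments and passed: 4.61 ± 0.16 (SD, n = 4) against 4.28 ± 0.10 (SD, n = 4), 1.26-fold or 0.33 on the log2 scale (SE 0.11, 95% interval 0.10 to 0.57, adjusted p = 0.0485), with no overlap. Of all tested genes 19.5% passed here and 10.4% passed as higher, so 1 of 9 members is again near the background. The groups did not overlap for 2 of 9 members and 24.2% of genes, and 3 of 9 members and 34% of genes had an unadjusted p under 0.05. With slides treated as a random block this call was lost too (adjusted p = 0.347) and without any 1 of 12 of the 15 arrays, and held only without high-fat sham replicate 1 or 3 or high-fat 1-kidney replicate 2 (adjusted p from 0.0356 to 0.131 over the 15). Slc22a7 was at 2.31 ± 0.84 (SD, n = 4) against 4.17 ± 0.51 (SD, n = 4), also without overlap. Its log2 difference was -1.86 (SE 0.64, adjusted p = 0.0551), and leaving out high-fat sham replicate 1, high-fat sham replicate 3 or high-fat 1-kidney replicate 3 brought it under the threshold (adjusted p = 0.0149, 0.0233 and 0.0256). Slc47a1, the exporter that works in series with OCT2 in cation secretion, was at 3.66 ± 0.54 against 3.10 ± 0.27 (SD, n = 4 each), with overlapping groups and a log2 difference of 0.56 (SE 0.24, adjusted p = 0.110); without high-fat 1-kidney replicate 3 it passed, at 0.78 (adjusted p = 0.0184). Slc22a6, whose level was 6.62 ± 0.06 against 6.50 ± 0.16 (SD, n = 4 each), had a log2 difference of 0.12 (95% interval -0.12 to 0.36, adjusted p = 0.472), and under quantile normalization the value was -0.0022.

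Over the 4 groups, the mean level of Slc22a7 was highest in low-fat mice with 1 kidney (4.49), then in low-fat sham (4.17), high-fat sham (3.06 ± 1.83, SD, n = 3) and high-fat mice with 1 kidney (2.31). Neighbours in this order overlapped, and none of the 3 steps passed the test. The high-fat sham group spread far more than the others, since its 3 arrays lay at 1.11, 3.31 and 4.75.

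Surgery was compared within each diet. No member passed on the low-fat diet, where 0.00623% of genes (1 gene) passed, and none passed on the high-fat diet, where 0% did; no member had an unadjusted p under 0.05 in limma in either comparison, as 3.23% and 4.65% of all genes had. On the low-fat diet all 9 log2 differences were above 0, from 0.07 (Slco4c1) to 0.75 (Slco1a1, 95% interval -0.46 to 1.95). Their median was 0.27 against 0.01 over all genes, and all 9 stayed above 0 with quantile, cyclic loess and normexp processing. The other settings run were no further check of the sign. By their design they left the levels or the group means of the low-fat arrays unchanged or nearly so. No member's groups were free of overlap on either diet, and 4.56% of genes on the low-fat and 2.92% on the high-fat diet were. The low-fat groups share no slide.

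On the high-fat diet the direction differed between members and between slides. Slc22a8 (OAT3, the blood-side carrier of larger anions) was at 1.25, 0.25 and -0.13 in sham mice and at 0.79, 0.86, 1.40 and 1.55 in mice with 1 kidney. These groups overlapped, with a log2 difference of 0.69 (SE 0.33, 95% interval -0.01 to 1.40, adjusted p = 0.999). Within slide 1 the difference was -0.43 and within slide 2 it was 1.42. Slc22a7 differed by -0.75 (SE 0.69, adjusted p = 0.999) between the same groups, by 0.76 within slide 1 and by -1.29 within slide 2. Without high-fat sham replicate 3 the value was 0.10, and without replicate 1 it was -1.72. Both members therefore had opposite signs on the 2 slides, on 3 and 4 arrays.

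The interaction, which asks whether surgery acted differently on the 2 diets, passed for no member and for 0% of genes; no member and 1.36% of genes had an unadjusted p under 0.05 in limma. Slc22a7 had a log2 value of -1.07 with a 95% interval from -3.09 to 0.95 (adjusted p = 1.000). An interval of that width does not show that surgery acted alike on both diets.

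Slides 1 and 2 both held high-fat mice of either operation, so they can be compared within the diet. Slc22a7, whose slide difference was known when it was picked, is given without a test. It was at 1.11, 2.25 and 1.50 on slide 1 and at 3.31, 4.75, 3.48 and 2.02 on slide 2. The slides overlapped by 1 array, high-fat 1-kidney replicate 4 at 2.02. The means were 1.62 ± 0.58 (SD, n = 3) and 3.39 ± 1.12 (SD, n = 4), and with a term for surgery slide 1 was lower by 1.69 (a log2 difference of -1.69, 3.23-fold). Leaving out 1 array moved this value between -2.26 (without high-fat 1-kidney replicate 4) and -0.87 (without high-fat sham replicate 1).

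Of the other 8 members 1 passed between the slides, where 7.11% of genes passed (31% when the term was fitted on all 15 arrays, chosen after the data were seen). Slc47a1 was at 3.86, 4.00 and 4.19 on slide 1 and at 3.33, 3.13, 3.01 and 3.44 on slide 2. All slide 1 arrays were higher, 1.71-fold or 0.77 on the log2 scale (SE 0.17, adjusted p = 0.0450), while 4.53% of all genes passed in that direction. The call was lost without any 1 of the 7 arrays other than high-fat sham replicate 2 (adjusted p from 0.0702 to 0.177 in the other 6 fits). The low-fat arrays of Slc47a1 ran from 2.72 to 3.43, which covers most of the slide 2 values and none of slide 1.

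The slides did not overlap for 4 of the 8 tested members, and 31.4% of genes did not; 5 of 8 members and 31% of genes had an unadjusted p under 0.05. Slc22a19 was at -0.03, 0.27 and 0.28 on slide 1 and at 1.16, 1.89, 1.57 and 0.61 on slide 2. It was lower on every slide 1 array, by a log2 difference of -1.11 (SE 0.31, adjusted p = 0.0665), and passed in the fit on all 15 arrays (adjusted p = 0.0380). Slco1a1 was at -1.46, -0.36 and -0.46 on slide 1 and at -0.07, 1.96, -0.13 and 0.56 on slide 2. Slide 1 was again lower throughout (-1.34, SE 0.55, adjusted p = 0.151). The difference was -0.63 without high-fat sham replicate 1 and -0.88 without high-fat sham replicate 3. Slc22a12 went the other way, at 4.57, 4.75 and 4.63 on slide 1 against 4.12, 3.55, 4.37 and 4.26 on slide 2. This is a log2 difference of 0.52 (SE 0.19, adjusted p = 0.118). In the fit on all 15 arrays it passed (adjusted p = 0.0478). With the replicate number as a block it was 0.01. Only replicate number 2 occurs on both slides, so that value rests on high-fat 1-kidney replicate 2 against high-fat sham replicate 2, given the surgery term. Slco4c1 overlapped between slides and had a difference of 0.72 (SE 0.29, adjusted p = 0.141), or 0.46 without high-fat 1-kidney replicate 4.

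The slide contrast also moved with markers of other cells, beside every member that differed between the slides. The 7 measured leukocyte markers were all higher on slide 1 (median log2 difference 0.60), with the mean level of the list from -0.80 to -0.58 on slide 1 and from -1.74 to -1.05 on slide 2; Lyz2, a myeloid lysozyme, passed at 1.33 (adjusted p = 0.0359). Of 8 hepatocyte markers 6 were higher on slide 1 (median 0.52), and the mean level of that list did not overlap between the slides, at -0.63 to -0.32 against -1.25 to -0.89; Fga, a fibrinogen chain, passed at 1.03 (adjusted p = 0.0397). The 7 adipocyte markers were all lower (median -1.09, none passing), but the mean level of the list overlapped, from -3.52 to -0.05 on slide 1 and from -2.82 to -0.62 on slide 2. Of 4 distal convoluted tubule markers 3 were lower (median -0.32), and Calb1, a calcium-binding protein, passed at -1.09 (adjusted p = 0.0442). Of 12 genes known to be higher in male mouse kidney, 9 were lower on slide 1 (median -0.24), and the mean level of that list ran from 3.13 to 3.38 on slide 1 and from 3.26 to 3.90 on slide 2. The part of these in the differences was not tested. Of the proximal tubule markers, for 17 genes of all or early segments 9 were lower (median -0.08) and for 11 genes of the straight segment 5 were lower (median 0.03), with none passing.

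Levels were then compared between members within slides, after each slide's mean was subtracted, so that diet, scan day and slide could not carry the relation. Surgery was not removed and could still enter on slides 1 and 2, which hold both operations. All 36 pairs were computed over the 15 arrays, with an exact permutation test over the 82944 orderings within slides and Benjamini-Hochberg adjustment over the pairs. Both Slc22a7 and Slc22a19 were high in the same mice: Pearson's r was 0.864 (exact p = 5.67e-04, adjusted 0.0204) and Spearman's rho 0.818 (exact p = 0.00134, adjusted 0.0482). The sign was the same in each of the 4 slides, and r was 0.821 without the 2 arrays farthest from the median of Slc22a7. In low-fat arrays alone r was 0.886, and in high-fat arrays alone 0.963, in both cases without subtraction of slide means.

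Slc22a7 and Slc22a8 went in opposite directions. Their r was -0.815 (exact p = 0.00128, adjusted 0.0230), negative in all 4 slides and -0.646 without the 2 farthest arrays. By rank the relation was weaker, with a rho of -0.679 (exact p = 0.0231, adjusted 0.208). The surgery difference, which stayed in these values, was 0.76 for Slc22a7 and -0.43 for Slc22a8 within slide 1. Within slide 2 it was -1.29 and 1.42. Its part in the relation was not tested. High-fat sham replicate 3 had the highest Slc22a7 (4.75) and the lowest Slc22a8 (-0.13) of the high-fat arrays, and low-fat 1-kidney replicate 2 had the lowest Slc22a7 (3.48) and the highest Slc22a8 (1.62) of the low-fat arrays.

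Slc22a6 and Slc22a12 had an r of 0.766 (exact p = 0.00301, adjusted 0.0362) and a rho of 0.811 (exact p = 0.00318, adjusted 0.0573). Slc22a6 varied little over the 15 arrays (SD 0.12), and Slc22a12 more (SD 0.43). The relation moved with the scaling of the arrays: r was 0.0771 after quantile normalization (adjusted exact p = 0.899) and 0.345 after cyclic loess (adjusted exact p = 0.480). The sign held in 3 of 4 slides and was negative on slide 1, and r was 0.661 without the 2 farthest arrays. A further pair, Slc22a19 and Slco4c1, had an r of 0.728 (exact p = 0.0145) that did not pass the adjustment (0.131). The close-lying Slc22a6 and Slc22a8, whose upstream stretches both hold GTTAAT, had an r of 0.282 (exact p = 0.342, adjusted 0.576). In all, 3 of 36 pairs passed the adjustment for Pearson's r and 1 for Spearman's rho. The share of pairs of other genes that would pass was not computed, so these counts have no background beside them. Each slide holds only 3 or 4 arrays, too few to test a relation within it. With 1 array left out the relation of Slc22a7 and Slc22a19 missed the adjustment without low-fat 1-kidney replicate 1 or 2 or high-fat sham replicate 3 (r at least 0.821 over all 15 such runs, adjusted exact p up to 0.0764). That of Slc22a7 and Slc22a8 missed it without any 1 of these or of low-fat sham replicate 3 and high-fat 1-kidney replicate 4 (r from -0.911 to -0.717, adjusted exact p up to 0.179).

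**Figure D3:**
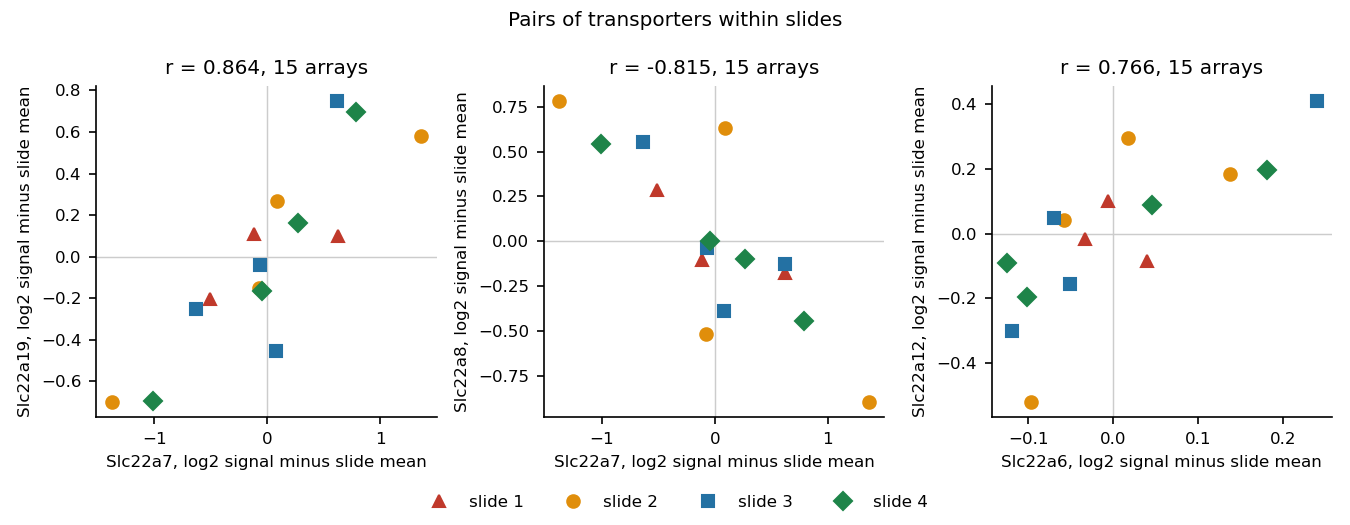
Log2 level minus the slide mean of one transporter (horizontal axis) against another (vertical axis) in 15 arrays, with the marker showing the slide. Slc22a19 rises with Slc22a7 (r = 0.864), Slc22a8 falls with it (r = -0.815), and Slc22a12 rises with Slc22a6 (r = 0.766) at this scaling, though hardly after quantile normalization (r = 0.0771).

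For members with an SD above 0.5, the genes nearest in pattern were sought among 16012 genes with a value on every array, by the mean absolute difference of log2 levels after each gene was centred on its own mean. Nearest to Slc22a7, whose own mean deviation was 1.02, were Cntnap5a (a neurexin-family adhesion protein, 0.43), Sec14l3 (a lipid-binding protein, 0.44) and Akr1c18 (20-alpha-hydroxysteroid dehydrogenase, which inactivates progesterone, 0.46). Cntnap5a was well above background on only 3 of the 15 arrays. On high-fat sham replicates 1, 2 and 3, where Slc22a7 was at 1.11, 3.31 and 4.75, Akr1c18 was at -4.37, -2.99 and -0.92 and Sec14l3 at -3.20, -1.29 and -0.74. Both genes were picked for their nearness over these same arrays, so this is a description.

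For Slc22a19, with a mean deviation of 0.54, the nearest were Nt5e (the ecto-enzyme that makes adenosine, 0.22), Myo5a (a myosin motor, 0.22) and Nudt11 (an inositol phosphate phosphatase, 0.26). Nt5e was highest on high-fat sham replicate 3 (2.33) and lowest on high-fat sham replicate 1 (0.48), and Slc22a19 was lowest on the latter too. For Slco1a1, with 0.80, they were Acsm3 (a medium-chain acyl-CoA synthetase and one of the listed male-higher genes, 0.37), Gm428 (0.41) and Agps (an enzyme of ether lipid synthesis, 0.42). Gm428 was well above background on 7 of 15 arrays. Acsm3 was at 2.42, 3.80 and 5.12 on high-fat sham replicates 1 to 3, where Slco1a1 was at -1.46, -0.07 and 1.96.

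**Figure D4:**
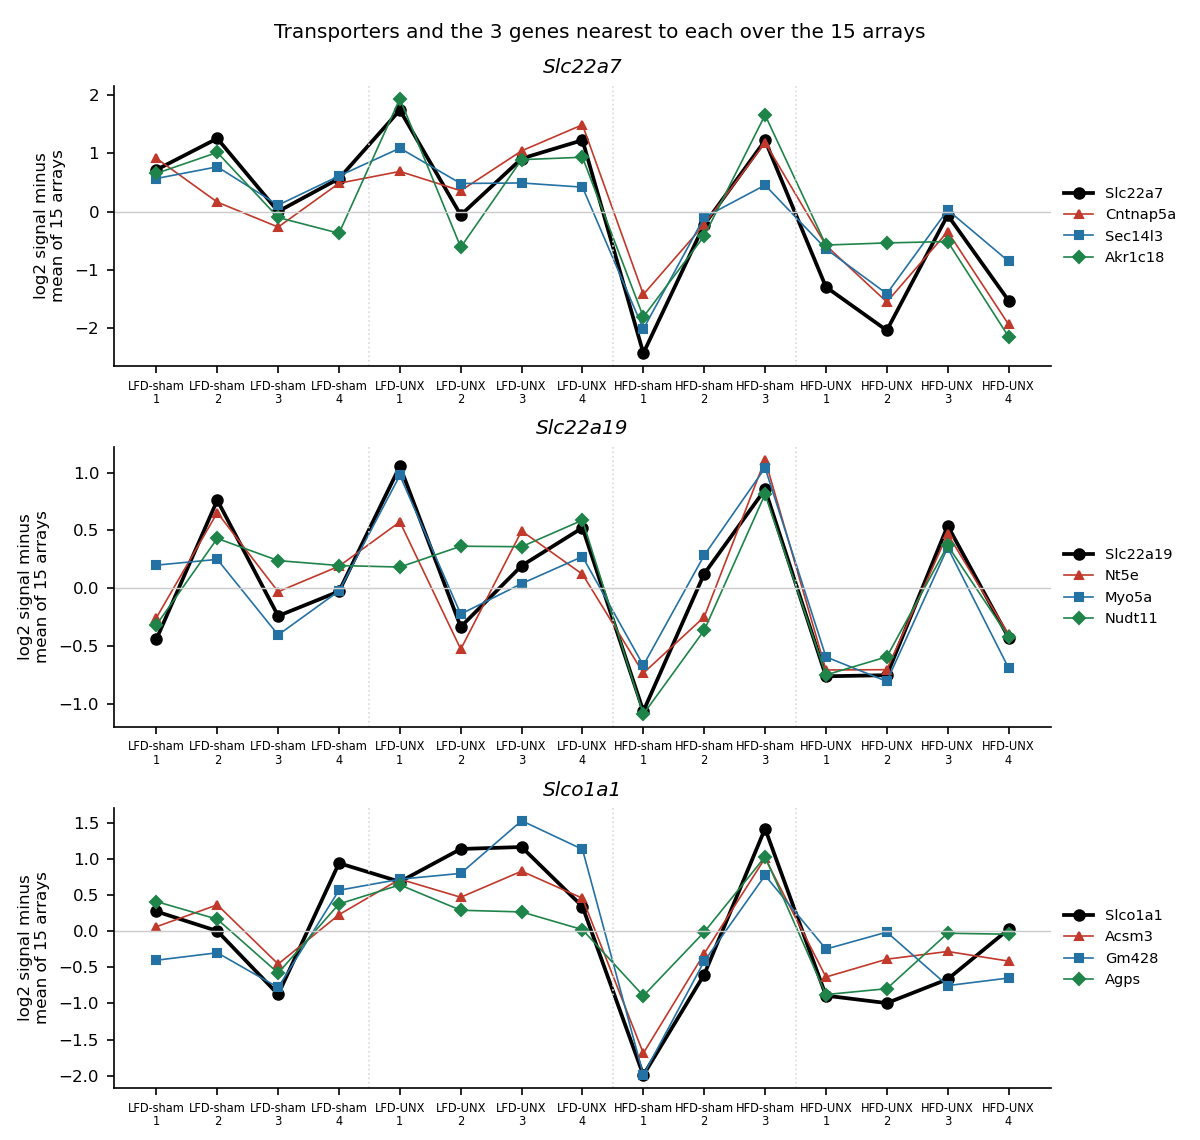
Log2 level minus the mean of the 15 arrays (vertical axis) for 3 transporters and the 3 genes nearest to each, array by array (horizontal axis, group and replicate). The lines follow each other within a mean absolute difference of 0.43 to 0.46 for Slc22a7, 0.22 to 0.26 for Slc22a19 and 0.37 to 0.42 for Slco1a1.

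Beside the members, a panel of 56 further genes of renal organic ion transport and its regulators was counted, of which 52 were tested. Between diets in sham mice 3 were higher and 1 lower, and in mice with 1 kidney 2 were higher; with both treatments against neither 3 were higher and 3 lower. No panel gene passed for surgery on either diet or for the interaction. These shares lie below those of all tested genes in the same comparisons, 13.9%, 14.2% and 19.5%. Slco1c1, a thyroxine and organic anion carrier, was higher in all of these diet comparisons. Its tested spot stood well above background with high-fat RNA (7 of 7 arrays) and with low-fat RNA did not (0 of 8), so only a bound can be given. In the processed signal it was at least 1.62-fold higher in sham mice and at least 1.47-fold higher in mice with 1 kidney. No p-value is given for it, since the spot entered the tested set only through the high-fat arrays. With normexp background correction the log2 differences were 0.16 in sham mice and 0.40 in mice with 1 kidney. Neither passed. The bound sets the high-fat mean against a low-fat mean in which each array counts at the dimmest spot it measured well above background. The other probe for Slco1c1 had no array with a signal well above background. Slc13a3, the blood-side dicarboxylate carrier that refills the exchange partner of OAT1 and OAT3, was higher as well. Its level was 6.50 ± 0.31 (SD, n = 3) against 5.89 ± 0.15 (SD, n = 4) in sham mice and 6.76 ± 0.29 against 6.16 ± 0.07 (SD, n = 4 each) in mice with 1 kidney, 1.52-fold (adjusted p = 0.0335) and 1.51-fold (adjusted p = 0.0249).

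Further panel genes passed in 1 or 2 comparisons. Slc22a22, a prostaglandin carrier, was 1.79-fold higher on the high-fat diet in sham mice (adjusted p = 0.0496), and Ppara, the fatty acid sensing nuclear receptor, was 1.33-fold lower (adjusted p = 0.0377). That fall was in the brightest probe. With the mean of its probes the log2 difference of Ppara went from -0.41 to -0.10 (limma adjusted p = 0.657). With both treatments, Slco1c1 (at least 1.44-fold), Slc13a3 (1.82-fold, adjusted p = 0.00265) and Slc22a22 were higher, and Slco2b1 (1.63-fold, adjusted p = 0.0372), Slc22a23 (1.41-fold, adjusted p = 0.0446) and Slc17a4 (1.72-fold, adjusted p = 0.0464) were lower. The mean of probes lost the calls of Slco2b1 and of Slc17a4, whose log2 difference went from -0.78 to -0.49 (limma adjusted p = 0.17). Between the slides Slc22a27 was lower on slide 1 (adjusted p = 0.0435); its spot cleared the background on 5 of 7 high-fat arrays. None of the 9 export pumps of the ABC family passed in any comparison. With slides as a random block no panel gene passed between diets or with both treatments, and with normexp background correction only Slc13a3 with both treatments did. Without 1 array at a time, the calls of Slco1c1 held in all 15 fits. This is no support, since the gene was tested only through its high-fat arrays. The call of Slc13a3 with both treatments held in all 15 fits too. Those of Slc13a3 between diets were lost in 5 fits in sham mice (without low-fat sham replicate 1, 2 or 3 or high-fat sham replicate 1 or 2) and in 4 in mice with 1 kidney (without low-fat replicate 1, 3 or 4 or high-fat replicate 4). Each further call was lost in 6 to 11 fits.

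Markers of kidney cells and of other cells, and sex-biased genes, moved beside Slc22a7 in mice with 1 kidney. Of the 12 genes known to be higher in male kidney, 11 were lower on the high-fat diet (median log2 -0.46, Timd2 passing), and of 5 known to be higher in female kidney all were higher (median 1.57, Slc7a12 passing). The mean level of the first list ran from 3.80 to 3.96 in low-fat and from 3.24 to 3.44 in high-fat mice with 1 kidney, and that of the second from -1.53 to -0.35 and from 0.10 to 0.34. All 7 leukocyte markers were higher (median 0.99; Cd3e and Cd79b, of T and B cells, passing), with the list from -2.13 to -1.75 in low-fat and from -1.61 to -0.58 in high-fat mice. Of 8 hepatocyte markers 6 were lower (median -0.53), with Ahsg, a secreted liver glycoprotein, passing lower and Ttr, the thyroxine carrier transthyretin, passing higher; the list ran from -1.02 to 1.42 in low-fat and from -0.98 to -0.54 in high-fat mice. Of 6 collecting duct markers 5 were lower (median -0.31), with Slc26a4, the chloride and bicarbonate exchanger pendrin, passing. Single genes also passed in further lists. In that of the distal convoluted tubule Pvalb passed higher, with 2 of 4 markers higher and 2 lower (median -0.05). Cdh5 passed higher for endothelium, with 4 of 6 higher (median 0.33). Lep passed higher for adipocytes, with 6 of 7 higher (median 0.15). For the injured tubule Clu passed lower, while 5 of 7 markers were higher (median 0.19). The part of all these markers in the fall of Slc22a7 was not tested. Of 17 proximal tubule markers 2 passed lower (Slc34a3 and Slc5a12, carriers of phosphate and of lactate), with a median of -0.07 over the list, and of 11 straight segment markers 2 passed higher (Slc5a1 and Slc7a12) and 1 lower (Atp11a).

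The same lists beside Slc22a2 with both treatments gave a median of 0.04 for the 17 proximal tubule markers (3 passing lower: Slc34a3, Slc5a12 and Slc7a7) and 0.20 for the 11 straight segment markers (Slc5a1 passing higher). Leukocyte markers had 6 of 7 higher (median 0.91) and 2 passing. All 5 stroma markers were lower (median -0.58; Dcn and Col1a1, matrix proteins, passing), as were 6 of 7 adipocyte markers (Cfd passing), while the 8 hepatocyte markers split evenly (Ttr passing higher and Ahsg lower). Of the male-higher genes 8 of 12 were lower (median -0.26). The part of these in the rise of Slc22a2 was not tested.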

How the data were processed

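Whole-kidney RNA of 15 mice was hybridised to 1-colour Agilent arrays. The authors' scanner software was Agilent Feature Extraction, version 10.7 in the submitters' processing notes and 10.7.3.1 in the headers; its processed intensity, as deposited, is background-subtracted and detrended within an array, per the file headers. The value table deposited beside them repeats these intensities, at 0.995 to 1.005 times the scanner values, so it is on a linear scale with no centring. Its column medians ran from 56.7 (high-fat sham replicate 1) to 251 (high-fat sham replicate 3). The array design names mm9, and GRCm38.p6 tables served for names (27234 of 39429 probes; 12195 unnamed) and upstream sequences.

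From the deposited intensities, log2 processed signal was taken and the array's own 75th percentile, over probes that are not controls, subtracted. Spots with outlier marks (74 to 273 per array) were left out, spots averaged per probe, probes well above background on at least 3 arrays kept, and the brightest probe taken per gene (16055 genes, 16012 with a value on every array). Groups were compared with limma 3.58.1 (lmFit, eBayes) under R 4.3.3 with statmod 1.5.0, giving each of the 4 groups 1 mean over all 15 arrays, and slides 1 and 2 on the 7 high-fat arrays with a surgery term. Tests were two-sided, with Benjamini-Hochberg adjustment over all genes and a threshold of 0.05; the fits were tested on simulated data. The limma p-values between groups measure the spread between arrays within groups, since that fit has no slide term. On the high-fat diet this spread also holds the difference between slides 1 and 2. Arrays on the same slide had a consensus correlation of 0.41.

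The members, the panel, the marker lists and the rules were chosen with earlier results of these data known. Named genes were the 9 members, up to 4 panel genes passing per comparison by lowest adjusted p (6 with both treatments, the further 2 chosen after their values were seen), up to 3 passing per marker list, and the 3 genes nearest in pattern to members with an SD above 0.5. The normexp alternative (offset 50) used median spot signals, since the scanner files used here give no mean signal. Probe sequences were not used here, so signal from near-identical SLC22 genes was not assessed. Alternatives are given in the closing section.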

Additional observations from a re-analysis of the deposited data

How the results depend on the processing

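Member and panel counts, the differences of the members and panel genes discussed, and 3 correlations were recomputed with other processing and without each array; likeness, marker lists and further members were not. Counts of members passing changed as follows. Between diets in sham mice (0 of 9) 1 passed (Slc47a1) once slides 1 and 2 were a fixed block. Between diets in mice with 1 kidney (1 of 9) 0 passed with normexp and with slide as a random block, 2 with only the groups of the comparison (Slc22a7 and Slco1a1) and 3 with the fixed slide block (Slc22a7, Slc22a12 and Slco1a1). With both treatments against neither (1 of 9) 0 passed with quantile normalization, normexp, the mean of probes and the random block, 2 with the filter on all arrays and 3 with the fixed block; with no filter or only the groups compared the count was 1, but Slc22a7 in place of Slc22a2. Between the slides (1 of 8) 0 passed with normexp and with no filter, 2 with the filter on all arrays, 2 with no surgery term and 3 with all 15 arrays. The surgery and interaction counts stayed at 0 in every setting run. Over all genes, the random block left 14, 26 and 84 genes of 2230, 2278 and 3131 in the diet comparisons and in both treatments against neither, and normexp left 161, 316 and 481. The fixed block raised these counts to 4474, 4101 and 5067 of 16055 genes. With only the groups compared, 1915 genes passed between diets in mice with 1 kidney. The filter on all arrays gave 2626 genes with both treatments and 1843 between the slides. Between the slides 1786 genes passed with no surgery term and 4984 with all 15 arrays, against 1141.

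Counts of panel genes, whose alternatives, like those of the correlations, were added after the data were seen, moved as follows. In these counts and in those without 1 array, Slco1c1 is included where it passed, though it was tested only through its high-fat arrays. In sham mice (4 of 52) 0 passed with normexp and the random block, 2 with the mean of probes, the replicate block or only the groups compared, and 9 with the fixed block. In mice with 1 kidney (2) 0 passed with normexp and the random block, 1 with the filter on all arrays, 4 with cyclic loess, 5 with quantile normalization or only the groups compared, and 7 with the fixed block. With both treatments (6) 1 passed with normexp, 0 with the random and 11 with the fixed block. Between slides (1) 0 passed with normexp and with no filter, 3 with quantile or cyclic loess normalization, 4 with the filter on all arrays or no surgery term, and 10 with all 15 arrays. The r of Slc22a6 and Slc22a12 was 0.0771 with quantile normalization, 0.345 with cyclic loess and 0.773 with normexp, missing the adjustment each time; the r of the other pairs passed under all 6 scalings and spot rules run.

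Samples with the same replicate number varied together little (21 pairs, r from -0.15 to 0.43, 5 over 0.1). Their median r was -0.01, against 0.02 for different numbers. Pairing of the mice by number was not tested. With the replicate block 0 members passed in each comparison of groups: 0 of 9 between diets in mice with 1 kidney (Slc22a7 -2.18, adjusted p = 0.0524) and 0 with both treatments against neither. Between slides Slco1a1 turned to 0.10 and Slc22a12 went from 0.52 to 0.01. Slide and replicate number nearly coincide there, since only number 2 occurs on both slides, so that fit cannot tell them apart well.

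Without 1 array at a time the counts ran from 0 to 1 (diet in sham mice), 0 to 2 (diet in mice with 1 kidney), 0 to 0 (surgery on either diet, and the interaction), 0 to 2 (both treatments) and 0 to 1 (slides). Panel counts ran from 1 to 6, 1 to 8, 2 to 10 and 0 to 4 (diet in sham mice, diet with 1 kidney, both treatments, slides), and r from 0.652 to 0.824 (Slc22a6 and Slc22a12, adjusted exact p from 0.0312 to 0.354, over the threshold in 10 of 15 runs), 0.821 to 0.921 (Slc22a7 and Slc22a19) and -0.911 to -0.717 (Slc22a7 and Slc22a8). The Slc22a7 slide difference ran from -2.26 to -0.87. Its difference for surgery on the high-fat diet ran from -1.72 to 0.10, turning from -0.75 to 0.10 without high-fat sham replicate 3, and the Slc22a6 difference with both treatments turned from 0.12 to -0.0022 under quantile normalization. The cause of these changes was not tested.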

Other observations

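Some likenesses lay outside the rule for naming genes and were picked after their values were seen. Abcc4, an export pump for cyclic nucleotides and organic anions in the brush border, was the gene nearest to Slc22a8 (mean absolute difference of centred log2 levels 0.19, against 0.39 for the own deviation of Slc22a8). Its group means were 1.35 ± 0.35, 1.47 ± 0.52 and 1.45 ± 0.26 (SD, n = 4 each) in low-fat sham, low-fat 1-kidney and high-fat 1-kidney mice, and 0.87 ± 0.72 (SD, n = 3) in high-fat sham mice. Slc22a13, a urate and nicotinate carrier of the same family, was nearest to Slco4c1 (0.17 against 0.39), at 4.20 ± 0.31, 4.34 ± 0.46 and 4.05 ± 0.35 (SD, n = 4 each) in the same groups and 4.04 ± 0.25 (SD, n = 3) in high-fat sham mice. No group difference of Abcc4 or Slc22a13 passed the test.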
